A study of Mus musculus with 4 samples.

Results

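The genes described are 10 members of the pathway by which a cell recognises viral RNA and makes interferon beta: Ddx58 (RIG-I), Ifih1 (MDA5), Dhx58 (LGP2), Mavs, Tlr3, Irf1, Irf3, Irf7, Irf9 and Ifnb1. They were chosen by name. Every array probe whose gene name, or a newer synonym of it, was one of these symbols was taken, which gave 13 of 55681 probes, and the 10 genes were among 16658 genes measured. The array files name all 13 probes by the older symbols, Ddx58 included.

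CMPs are cardiac mesenchymal progenitors, Sca-1+ cells of the adult C57BL/6 mouse heart, which the study took from the atria. The control CMPs were untreated and labelled day 0. OSKM-CMPs are the same kind of cells given Sendai virus that carries the genes of Oct4, Sox2, Klf4 and c-Myc, then kept in a reprogramming medium without leukemia inhibitory factor, and were sampled at day 4, day 6 and day 8. There were 4 arrays, 1 for each condition, and how many mice gave the cells of an array is not given in the sources used here. No array held cells with an empty virus or untreated cells at a later day, so the virus vector, the factors, the medium and the time in culture cannot be told apart. With 1 array for each condition no difference has a replicate check, and none carries a p-value. The number of arrays limits the precision.

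RIG-I and MDA5 are helicases of the cytosol that bind viral RNA, RIG-I preferring short RNA with a triphosphate end and MDA5 long double-stranded RNA. Both signal through Mavs on the outer mitochondrial membrane, whereas Tlr3 reads double-stranded RNA inside endosomes and signals through its own adaptor. The kinases downstream activate Irf3 and Irf7, which bind the Ifnb1 promoter together with NF-kB, and the secreted interferon beta acts through its receptor, STAT factors and Irf9 on genes that include most of the sensors themselves. Sendai virus is a negative-strand RNA virus.

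A value here is the log2 of the processed Cy3 signal of a probe, relative to the 75th percentile of its array, and a gene took the mean of its probes that were well above background on at least 1 array. Errors (±) are 1 SD from the error model of the scanner software and cover neither cultures nor RNA preparation. Between 56.6% and 59.6% of the probes of an array were well above background, no spot was saturated, and the signal at the 75th percentile lay between 388.5 and 410.9. All 12 mesenchymal progenitor markers looked up, among them Ly6a (Sca-1), Pdgfra, Thy1, Col1a1 and Vim, were well above background on all 4 arrays. Their levels did change, with a median of -0.45 from the control to day 8. At least 2-fold higher were 2 (Ly6a 2.69 ± 0.20, Nt5e 2.10 ± 0.21) and lower 3 (Thy1 -1.78 ± 0.20, Itgb1 -1.35 ± 0.14, Eng -1.19 ± 0.20), beside 14.4% and 11.6% of all genes. Of the mouse genes of the reprogramming factors, Pou5f1 and Sox2 stayed dim on all 4 arrays, and Klf4 (-0.81 ± 0.20) and Myc (-3.08 ± 0.15) were lower at day 8 than in the control. The virus carries human genes by the study's methods, so these probes need not read its transcripts and do not check the labels.

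The promoter stretches that bear on the members are shown here because they hold letters that interferon-pathway factors are known to bind. RefSeq windows on GRCm38.p6, from 250 bases before to 50 bases after an annotated start, were matched for 9 of the 10 genes, 11 windows in all; none was matched for Dhx58. Both strands were searched for AANNGAAA (the core that interferon regulatory factors bind), GAAANNGAA (the interferon-stimulated response element, ISRE, which can overlap the core), TTCNNNGAA (the GAS element of STAT factors) and GGAAATTCC (an NF-kB site). Capitals mark every match, and positions are counted from the first transcribed base as 0. Of 32851 RefSeq windows of the same length, 23.9% held the IRF core, 8.56% the ISRE, 8.30% the GAS element and 0.317% the NF-kB site. The stretches are Ifnb1 at chr4:88522795-88522994, Ddx58 at chr4:40239796-40239925, Ifih1 at chr2:62646346-62646375 and chr2:62646212-62646241 and Tlr3 at chr8:45410381-45410480, all on the minus strand, and Irf1 at chr11:53769894-53770013 on the plus strand, each written 5′ to 3′ along its gene.
Ifnb1: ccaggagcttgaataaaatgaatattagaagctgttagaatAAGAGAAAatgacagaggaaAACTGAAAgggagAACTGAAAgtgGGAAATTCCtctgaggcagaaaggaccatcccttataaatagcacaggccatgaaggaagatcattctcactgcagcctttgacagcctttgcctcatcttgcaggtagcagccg
Ddx58: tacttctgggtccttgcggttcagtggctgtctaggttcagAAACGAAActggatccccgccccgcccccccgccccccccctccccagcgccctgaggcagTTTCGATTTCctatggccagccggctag
Ifih1, upstream: aattcgcgTTCCCTTTCctgtttctcactt
Ifih1, past the start: agtctggagaagagAATCGAAACAGAAAcc
Tlr3: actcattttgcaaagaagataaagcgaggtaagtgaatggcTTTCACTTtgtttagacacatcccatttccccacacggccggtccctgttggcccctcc
Irf1: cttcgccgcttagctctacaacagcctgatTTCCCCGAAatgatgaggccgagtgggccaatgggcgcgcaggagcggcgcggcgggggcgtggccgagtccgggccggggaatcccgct

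The Ifnb1 window held 3 IRF cores, which began at positions -159, -139 and -126, followed by the NF-kB site at -115 to -107, with no overlap among them. Ddx58 had an IRF core at -59 and a second on the strand opposite the gene at 2 to 9, which overlapped an ISRE at 3 to 11. Ifih1 had an ISRE on the strand opposite the gene at -112 to -104 and, just past the start, 2 overlapping cores at 28 to 35 and 34 to 41 that shared letters with another ISRE at 32 to 40. Tlr3 had 1 IRF core on the strand opposite the gene at -59, and 1 of the 2 Irf1 windows had a GAS element at -90 to -82. These letters were not found in the windows of Mavs, Irf3, Irf7 and Irf9. A match describes the letters and does not show a bound site.

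**Figure D1:**
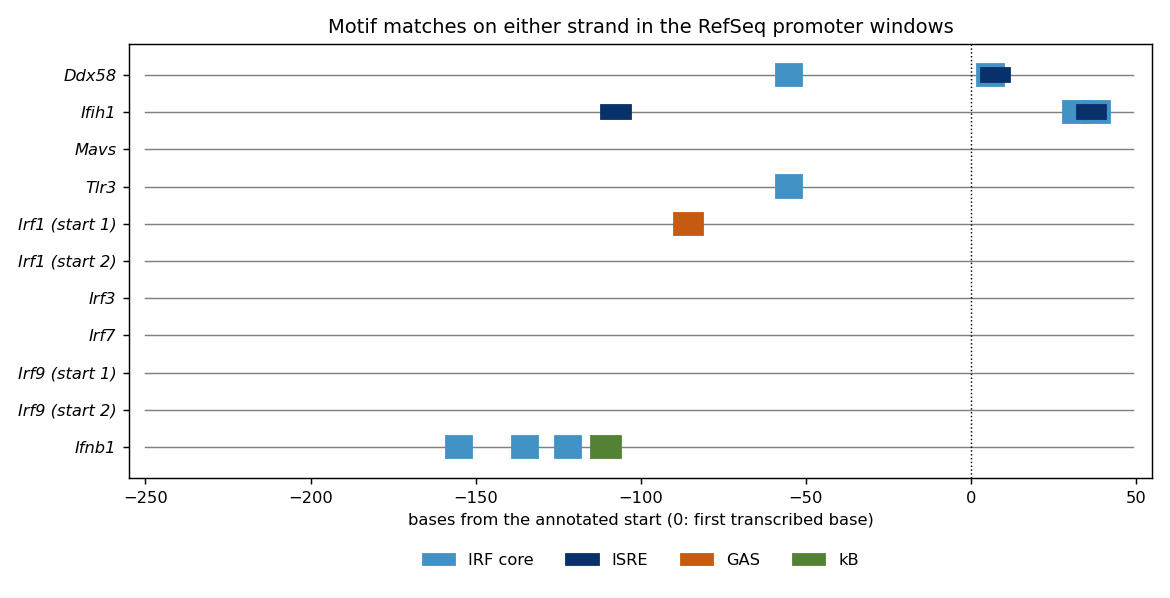
Matches of the 4 motifs in the 11 RefSeq promoter windows of 9 genes. The x axis is the distance in bases from the annotated start, and each box spans 1 match on either strand. Ifnb1 carries 3 IRF cores and an NF-kB site (kB) in a row between -159 and -107, and Ddx58 and Ifih1 carry an ISRE just past the start.

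Compared with the CMP control, the sensors Ifih1 and Dhx58, the factor Irf7 and the ligand Ifnb1 were at least 2-fold higher in OSKM-CMPs on every day sampled. Tlr3 joined them at day 6 and Irf1 at day 8. Ddx58 stayed under 2-fold on each day (1.54-, 1.78- and 1.93-fold), and Mavs, Irf3 and Irf9 differed from the control by no more than 2 times their error on any day. None of the 10 genes was 2-fold lower on any day.

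At day 4, 4 of the 10 genes were at least 2-fold higher than the control, where 12.1% of all genes measured were. The corresponding count at day 6 was 5, with 13.0% of all genes, and at day 8 it was 6, with 14.4%. A 2-fold lower value was found for 9.57%, 11.5% and 11.6% of all genes at day 4, day 6 and day 8, and for 0 members. The median log2 change of the 10 genes was 0.82, 1.02 and 1.26, against medians between -0.04 and -0.01 over all genes. Ifnb1 was measured only through the OSKM-CMP arrays, where it was bright, and so had to be higher. The 9 genes well above background on all 4 arrays had counts of 3, 4 and 5 and medians of 0.66, 0.95 and 1.19. Of the 14532 genes measured under that filter, 1485 were at least 2-fold higher at day 8, a smaller share than the 14.4% above. The matching shares at day 4 and day 6 were not computed. At 1.5-fold in place of 2-fold, 7 of the 10 were higher on each day, but the share of all genes past 1.5-fold was not computed. Since all 3 days share 1 control array, an error of that array enters every change over the control alike.

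**Figure D2:**
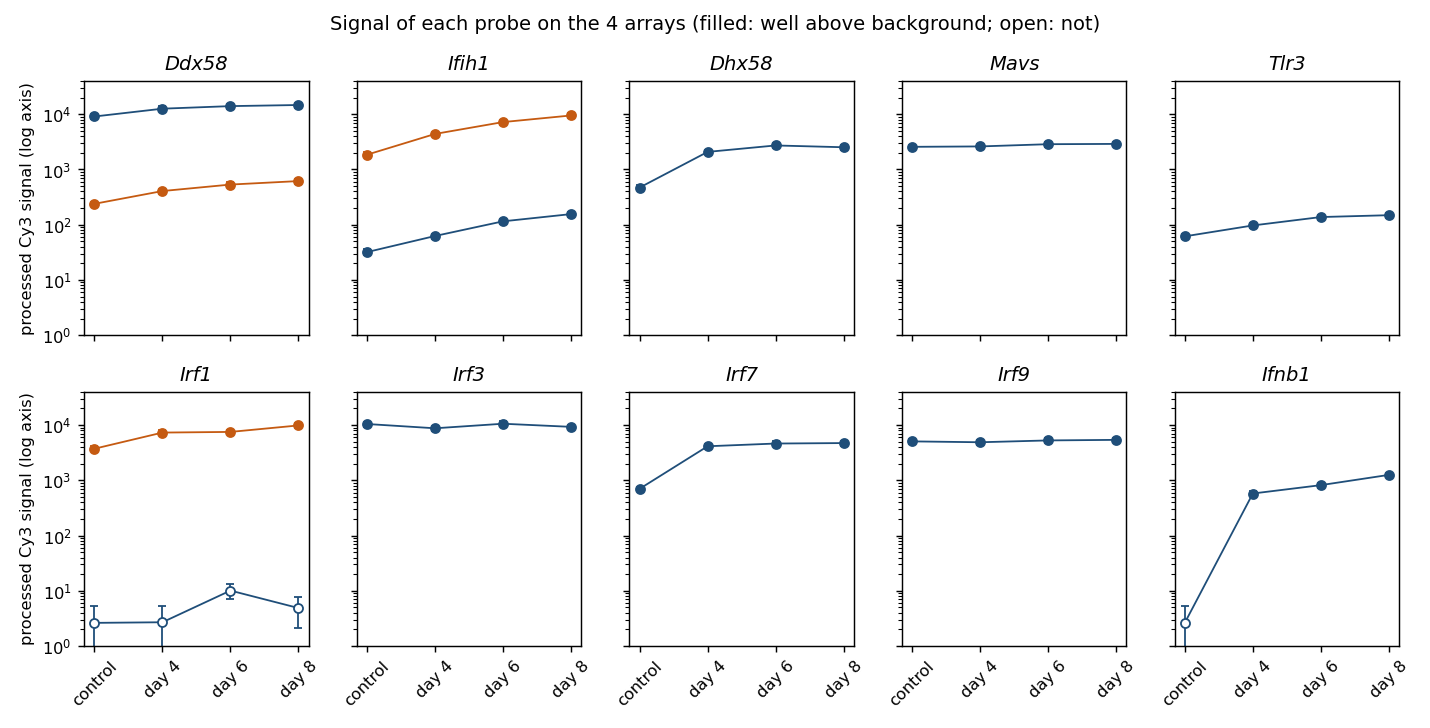
Processed Cy3 signal (log axis) of all 13 probes of the 10 genes on the control, day 4, day 6 and day 8 arrays. Each line is 1 probe, bars are the scanner software's error of 1 SD, filled points are well above background and open points are not. Ifnb1 was dim on the control array and reached a signal of 1255 at day 8, while the Mavs, Irf3 and Irf9 lines move by no more than 2 times their error from the control.

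Among the cytosolic sensors, Dhx58, a helicase without signalling domains that tunes the other two, had signals of 472, 2083, 2725 and 2529 on the control, day 4, day 6 and day 8 arrays. All 3 OSKM-CMP values lay far above the control, and they lay close to each other. Its log2 change was 2.15 ± 0.20, 2.47 ± 0.20 and 2.35 ± 0.20, that is 4.43-, 5.54- and 5.08-fold, so 91.5% of the day 8 log2 change was present by day 4.

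Ifih1, the sensor of long double-stranded RNA, was read by a pair of probes 547 bases apart by their starts. The brighter had signals of 1854, 4406, 7223 and 9513 and the dimmer 31.9, 62.5, 115 and 156, in the order control, day 4, day 6 and day 8. Both climbed at every step. The gene's log2 change was 1.11 ± 0.15 at day 4, 1.84 ± 0.15 at day 6 and 2.24 ± 0.15 at day 8 (4.74-fold), with 2.28 ± 0.20 for the brighter probe and 2.21 ± 0.23 for the dimmer at day 8. At day 4 these were 1.25 ± 0.20 and 0.97 ± 0.23, on either side of 2-fold. By day 4 the gene had made 49.5% of its day 8 log2 change. Its day 4 value fell under 2-fold with normexp background correction and quantile normalization (0.85).

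Ddx58, the sensor of triphosphate RNA, also had probes at 2 places, and both were higher on every later array. The brighter probe read 9117, 12627, 14054 and 14719 and the dimmer 239, 407, 534 and 617. As a gene it was higher by 0.62 ± 0.14, 0.83 ± 0.14 and 0.95 ± 0.14 on the log2 scale, beyond 2 times its error on each day. The probes disagreed on the size, at 0.61 ± 0.20 for the brighter and 1.29 ± 0.20 for the dimmer at day 8, so whether the gene passed 2-fold depends on the probe. At day 8, 15.1% of all genes were higher by as much as Ddx58, 5.43% by as much as Ifih1 and 4.99% by as much as Dhx58.

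Mavs, the adaptor that both signalling helicases use, had signals of 2574, 2617, 2872 and 2907. Its log2 changes of 0.03, 0.10 and 0.10 (± 0.20 each) lay within the error. Tlr3, the endosomal receptor, had signals of 61.6, 96.9, 138 and 149, lowest in the control and highest at day 8. It was higher by 0.66 ± 0.22, 1.10 ± 0.21 and 1.19 ± 0.21, and passed 2-fold at day 6 and day 8. That call was lost at both days under quantile normalization with normexp (0.59 at day 8), and without it (1.00, just short of 2-fold).

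**Figure D3:**
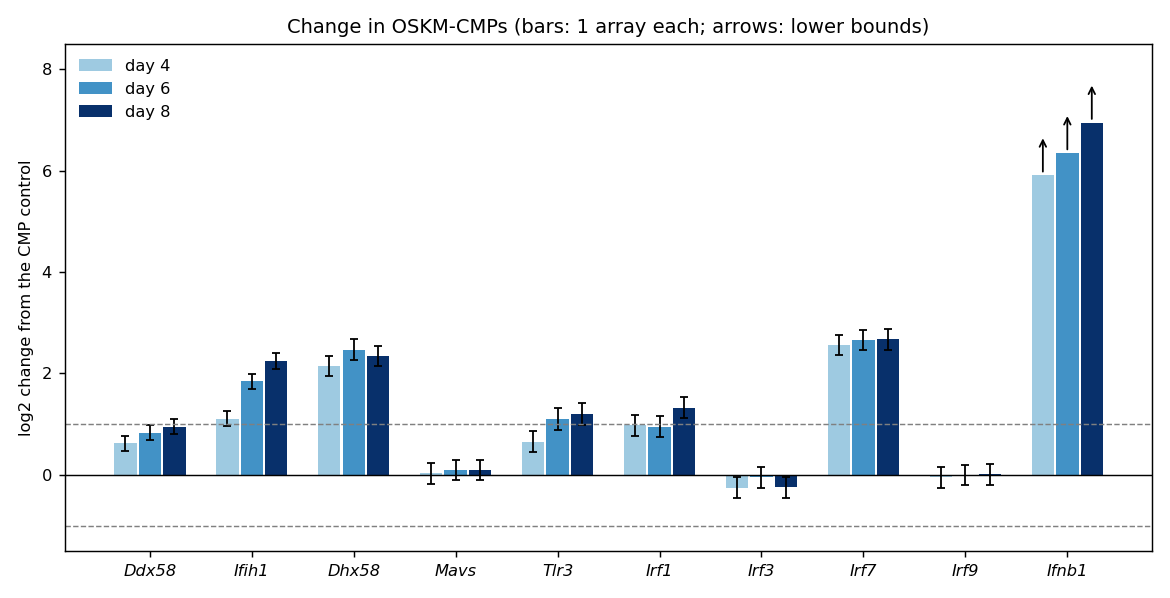
Log2 change from the CMP control at day 4, day 6 and day 8 for each of the 10 genes. Bars are single arrays, error bars are 1 SD from the scanner software, dashed lines mark 2-fold, and the Ifnb1 bars with arrows are lower bounds. Irf7 and Dhx58 are near their day 8 value at day 4, Ifih1 climbs from 1.11 to 2.24, and Mavs, Irf3 and Irf9 lie near 0.

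Of the 4 interferon regulatory factors, Irf7 and Irf1 were higher in OSKM-CMPs by more than 2 times their error and Irf3 and Irf9 were not. Irf7, which is itself an interferon-induced gene and drives the later interferon alpha genes, had signals of 703, 4140, 4639 and 4731 on the control, day 4, day 6 and day 8 arrays. The 3 OSKM-CMP values were close to each other and well clear of the control. Its log2 change was 2.56 ± 0.20, 2.66 ± 0.20 and 2.67 ± 0.20, which at day 8 was 6.38-fold, and 3.94% of all genes were higher by as much. The steps after day 4 were within the error, and 95.8% of the day 8 log2 change was reached by day 4. The Irf7 probe is shown because its 60 bases span 351 bases of genome (chr7:148450664-148451014 on mm9, minus strand), so it crosses at least 1 exon junction. It is the only one of the 13 probes not contiguous in the genome.
Irf7 probe: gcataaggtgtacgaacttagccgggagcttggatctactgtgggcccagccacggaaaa

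Irf1, a factor that interferon gamma and NF-kB signals induce, had signals of 3737, 7328, 7532 and 9867. The change was 0.97 ± 0.20, 0.95 ± 0.20 and 1.32 ± 0.20, so the first 2 values lay within the error of the 2-fold line and only the day 8 value passed it. Under quantile normalization the earlier days passed it too, with 1.08 and 1.09. A further Irf1 probe, 1071 bases along the chromosome, stayed dim on all 4 arrays (signals between 2.62 and 10.1) and was left out.

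Irf3, the factor that the kinases activate by phosphorylation, had signals of 10474, 8765, 10595 and 9303, with the control inside the range of the later arrays. Its log2 changes were -0.25, -0.05 and -0.25 (± 0.20 each). Irf9, the DNA-binding subunit that joins STAT factors in the complex ISGF3, had signals of 5075, 4894, 5282 and 5407 and log2 changes of -0.05, 0.00 and 0.01 (± 0.20 each). All of these values lay within 2 times the array error. The arrays read RNA and not the phosphorylation or the place of these proteins.

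Ifnb1, the interferon beta gene, was dim on the control array, that is, not well above background, and its probe there (chr4:88168023-88168082 on mm9) held a signal of 2.63 ± 2.64. On the OSKM-CMP arrays it was well above background, with 577, 818 and 1255 at day 4, day 6 and day 8. Against the lowest control signal that counted as well above background (9.61), it was at least 60.2-fold higher at day 4, at least 81.5-fold at day 6 and at least 124-fold at day 8. On the log2 scale these bounds were 5.91, 6.35 and 6.95. Among 14200 genes that both the control and the day 8 array measured well above background, 14 changed upward by as much as the day 8 bound. Genes dim in the control, as Ifnb1 was, are not in that count. Some of these had larger log2 bounds at day 8, among them the adipocyte markers Adipoq (11.2) and Cfd (11.9). With normexp, whose offset of 50 raises dim signals, the day 8 log2 change was 4.34.

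**Figure D4:**
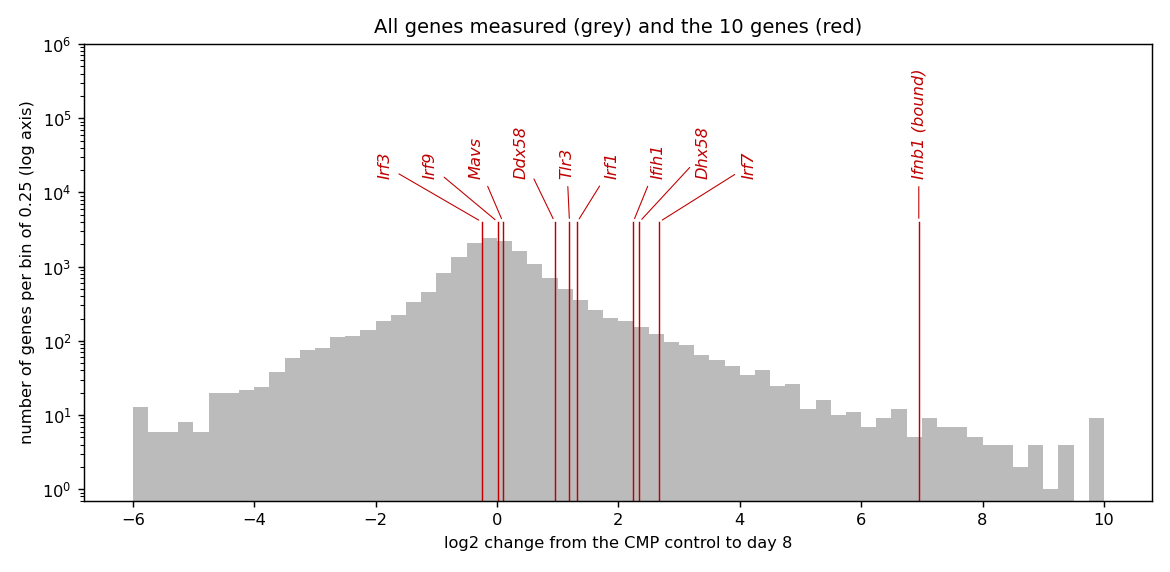
Number of genes (log axis) by log2 change from the CMP control to day 8, in bins of 0.25, for all 16658 genes measured, with the 10 genes marked in red. The first and last bins hold all genes beyond them, and Ifnb1 is drawn at its lower bound of 6.95. Irf3, Irf9 and Mavs stand at the centre of the distribution, and Ifih1, Dhx58 and Irf7 in its upper tail.

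Between day 4 and day 8, where both arrays come from OSKM-CMPs, Ifih1 and Ifnb1 moved by at least 2-fold, both upward. Of all genes, 4.93% were higher by as much and 4.1% lower. Ifih1 gained 1.13 ± 0.15 and Ifnb1 1.04 ± 0.20 on the log2 scale. Ddx58 gained 0.33 ± 0.14 and Tlr3 0.54 ± 0.21, also past 2 times the error, while Irf7 (0.11 ± 0.20), Dhx58 (0.20 ± 0.20) and Irf1 (0.35 ± 0.20) did not. In the single steps, 0 members moved by 2-fold, where 2.83% of all genes were higher and 2.64% lower from day 4 to day 6, and 2.44% higher and 1.01% lower from day 6 to day 8. Ifih1 was higher after both, by 0.73 ± 0.15 from day 4 to day 6 and by 0.40 ± 0.15 from day 6 to day 8, and Ifnb1 by 0.44 ± 0.20 and 0.60 ± 0.20. With normexp 0 members passed 2-fold between day 4 and day 8, and with the array median as scale 1 did.

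The rest of the pathway was looked up in 7 lists of named genes, of which 109 were measured. At day 8, 22 of them (20.2%) were at least 2-fold higher than the control and 9 (8.26%) at least 2-fold lower, beside 14.4% and 11.6% of all genes. Their median log2 change was 0.07. Of the 22, 3 were under 2-fold by their bound. With the array median as scale the split was 16 higher and 13 lower.

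Other nucleic acid sensors numbered 21, with a median of 0.47, and 8 were at least 2-fold higher and 2 lower at day 8. Oasl1, of the oligoadenylate synthetase family, was higher by 5.08 ± 0.20, Ifit1, which binds RNA lacking the host's cap methylation, by 3.53 ± 0.20, and Oas2 by 1.98 ± 0.20. Zbp1, a sensor of Z-form nucleic acid, was higher by 1.83 ± 0.14. Nod2, dim on the control array, was at least 5.66-fold higher. Oas3 was also dim there, but its control signal lay above the lowest one that counted as well above background. Its measured change of 1.04 ± 0.41 is therefore no lower bound, and its error spans the 2-fold line. Tlr9, which reads DNA in endosomes, was lower by 1.24 (-1.24 ± 0.20) and Cgas, the cytosolic DNA sensor, changed by -0.86 ± 0.15. Aim2, another DNA sensor, was measured well above background in the control alone and was at least 3.90-fold lower at day 8.

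The signalling chain from the adaptors to the interferon promoter gave 26 measured genes with a median of -0.01, 2 of them at least 2-fold higher and 2 lower. Ikbke, an interferon-inducible kinase of Irf3 and Irf7, was higher by 1.45 ± 0.21, while its relative Tbk1 changed by -0.28 ± 0.20. Traf6, a ubiquitin ligase, was counted by the mean of its 3 probes; 1 of them was dim in the control, and by the bound the gene was at least 1.95-fold higher. Sting1, the adaptor of the DNA-sensing arm, was lower (-2.29 ± 0.20), as was Hmga1 (-1.43 ± 0.13), an architectural protein of the Ifnb1 enhancer. Rela, the NF-kB subunit, changed by -0.53 ± 0.20. The coactivators Ep300 and Crebbp changed by 0.82 ± 0.20 and 0.76 ± 0.15.

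Regulators of the sensors were split by direction of action. Of 12 positive regulators (median 0.13), 1 was at least 2-fold higher and 1 lower: Trim14, which joins Mavs, was at least 6.95-fold higher by its 2 kept probes, and the chaperone Ywhah was lower (-1.41 ± 0.20). Trim25, the ligase that activates RIG-I, changed by 0.28 ± 0.14, Zdhhc1 by 0.93 ± 0.20, Tomm70a by 0.58 ± 0.20, Rnf135 by 0.52 ± 0.14 and Ywhae by -0.80 ± 0.20. Of 20 negative regulators (median 0.08), 6 were at least 2-fold higher and 1 lower. The 6 were Usp18 (1.80 ± 0.20), Nlrc5 (1.66 ± 0.21), Isg15 (1.66 ± 0.14), Socs1 (1.58 ± 0.20), Tnfaip3 (1.51 ± 0.20) and Rnf125 (1.16 ± 0.21), several of which are interferon-induced genes that dampen the response. Socs3, which blocks cytokine receptors, was the lower one (-2.17 ± 0.20).

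Other interferon regulatory factors and their binding partners gave 6 measured genes, with a median of 0.34, or 0.23 with bounds in place, and 2 were counted at least 2-fold higher and 1 lower. Irf5 was higher by 1.55 ± 0.21, and Irf8, a factor of myeloid cells, was lower (-3.17 ± 0.23). Irf2 changed by 0.18 ± 0.20, Irf2bp2 by 0.49 ± 0.14 and Irf2bp1 by -0.34 ± 0.20. Of 19 other interferon genes listed, 14 had a probe and 10 were well above background on at least 1 array. Their median was 0.07. Ifna13, dim in the control, was the 1 gene counted past 2-fold and was at least 1.75-fold higher by its bound, while Ifna1 (0.32 ± 0.24), Ifna2 (0.22 ± 0.29) and Ifna5 (0.19 ± 0.24) lay within 2 times their error. The Ifna genes are near-identical copies, so a probe may read several of them. Ifnab changed by -0.27 ± 0.23 and Ifnl3 by -0.64 ± 0.21. The probes of Ifna4, Ifne, Ifnk and Ifng stayed dim on all 4 arrays.

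Downstream of the ligand, 14 receptor and JAK-STAT genes had a median of -0.31, and 2 were at least 2-fold higher and 2 lower at day 8. Stat2, a partner of Irf9, was higher by 2.20 ± 0.20, and it stood at 2.05 ± 0.20 by day 4. The receptor subunits Ifnar1 and Ifnar2 changed by -0.09 ± 0.12 and -0.37 ± 0.20, and the kinases Jak1 and Tyk2 by -0.93 ± 0.20 and 0.15 ± 0.20. Stat3 (-1.08 ± 0.11) and the phosphatase Ptpn6 (-1.79 ± 0.31) were lower. Pias1, an inhibitor of STAT factors, changed by 0.40 ± 0.12.

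**Figure D5:**
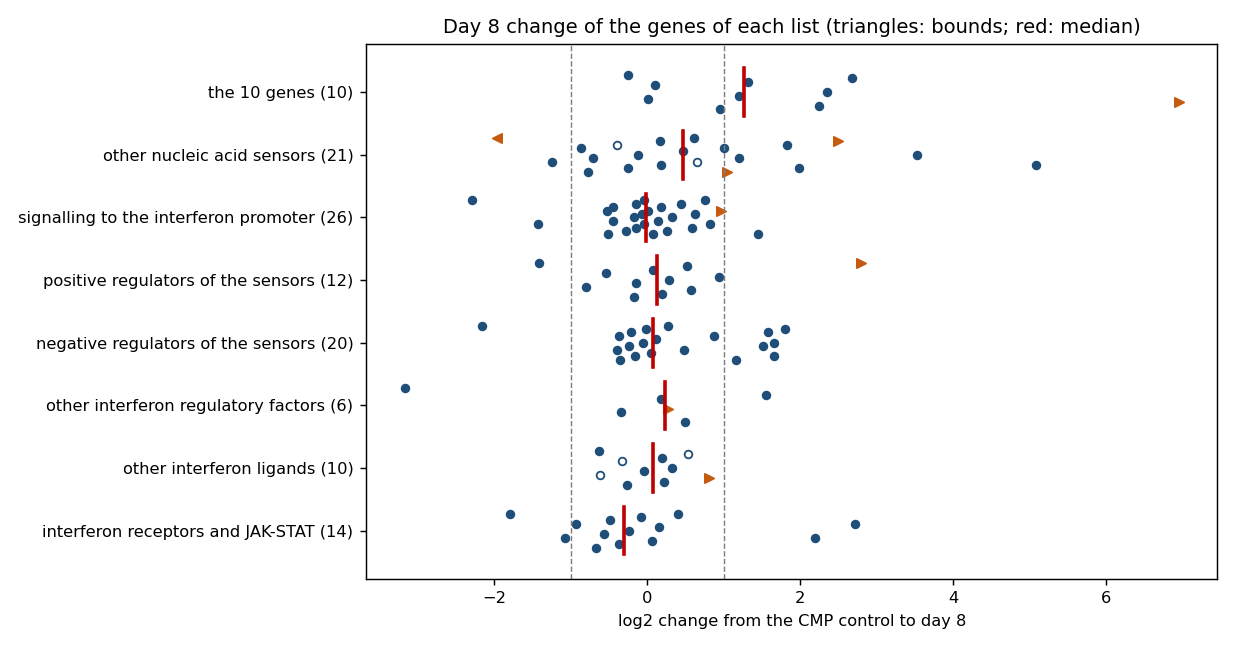
Log2 change from the CMP control to day 8 for the genes of each list, with the number measured in brackets. Filled points are genes well above background on both arrays, triangles are bounds and point the way the true change lies, open points are dim on at least 1 of the arrays and have no bound, red lines are medians with bounds in place and dashed lines mark 2-fold. The Oas3 triangle stands at its measured change and is no bound. The median of the 10 genes is 1.26, that of the other sensors 0.47, and the other lists lie between -0.31 and 0.23.

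The genes whose changes over the 3 days lay nearest to those of Irf7, among 13760 genes well above background on all 4 arrays, were Sly, Epha3, Msx3, Gcnt1 and Ascl2, with root mean square differences between 0.031 and 0.097 on the log2 scale. For Ifih1 they included Cd1d2, Aoc3, Gm8909 and Rasgef1b, with differences between 0.057 and 0.114. These rest on 3 points each that share the control array and are a description only.

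Markers of other cell types were read beside the members, since in RNA from a whole culture fewer cells of a type and less RNA per cell cannot be told apart. Of 13 leukocyte markers, 10 were well above background on at least 1 array, with a median change of 0.07 at day 8, and their summed signal was between 1446 and 1607 on the 4 arrays. That sum rests mostly on a few brighter markers, Cd3e, Csf1r and Itgam among them, so it need not follow single markers. At day 8, 2 of the 10 leukocyte markers were counted at least 2-fold higher and 1 lower. Coro1a was higher by 1.12 ± 0.23, Cd68 was at least 2.05-fold higher and Tyrobp at least 1.57-fold lower by its bound. Past 2 times their error, Csf1r (-0.73 ± 0.14) and Adgre1 (-0.83 ± 0.31) were lower and Fcer1g (0.51 ± 0.21) higher. Ptprc (CD45) changed by 0.02 ± 0.36, Itgam by -0.10 ± 0.14, Cd3e by 0.12 ± 0.20 and Siglech by 0.16 ± 0.19. Laptm5 and Itgax were not well above background anywhere. The 6 endothelial markers, 2 of them dim at day 8, had a median of -0.65 at day 8 with bounds in place and a summed signal of 714 in the control and between 451 and 500 in OSKM-CMPs. At day 8, 0 of them were at least 2-fold higher and 3 lower, beside 14.4% and 11.6% of all genes. Cdh5 was at least 11.9-fold lower, Tie1 at least 2.06-fold lower and Tek changed by -2.70 ± 0.27. The other endothelial markers did not share so large a fall: Vwf changed by 0.78 ± 0.25, Pecam1 by 0.10 ± 0.16 and Kdr by -0.27 ± 0.11. Of 6 cardiomyocyte markers, 5 were measured, 3 of them dim in the control, with a median of 0.93 at day 8 with bounds in place, though their summed signal was 4649 in the control and between 1710 and 2724 in OSKM-CMPs. That sum is mostly Tnnt2, by far the brightest, which was lower at day 8 (-1.60 ± 0.20). The 3 dim in the control (Myh6, Myl7 and Tnni3) were counted at least 2-fold higher, Myh6 under 2-fold by its bound (1.91-fold). The 8 adipocyte markers, 4 of them dim in the control, had a median of 7.39 at day 8 with bounds in place, and their summed signal went from 1978 in the control to 18263, 65648 and 144481. The part of these shifts in the values of the 10 genes was not tested.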

How the data were processed

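Agilent SurePrint G3 mouse arrays, 1 per condition and all read in 1 scan, measured RNA of the control CMPs and the OSKM-CMPs; 250 ng of RNA was labelled for each, per the labels. The authors' Feature Extraction files (10.7.3.1 by the file headers, 9.5.3 by the submitters' processing notes) hold a background-subtracted Cy3 intensity, its error and flags for each spot. The deposited normalized log2 values, from GeneSpring, equal the log2 of that intensity shifted by 1 constant per array, with column medians between -4.22 and -3.96; direction and scale are known from this match.

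Control spots (3671 per array) and outlier spots (87 to 106) were left out. Log2 intensities were averaged over the spots of a probe, and each array was scaled by subtracting its 75th percentile. A probe counted as well above background where at least 50% of its spots were flagged so. Probes that passed on 1 array or more were kept (35541, 63.8%). Names came from the RefSeq table of GRCm38.p6: 26762 probes by accession, 3819 by symbol and 639 by synonym, with 24461 unmatched. A gene was well above background only if all its kept probes were. Otherwise bounds were taken against the lowest signal well above background, or against the probe's own signal where that was higher. Probe positions are on mm9, as in the files. Called means at least 2-fold.

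The members and lists were chosen with earlier results of these data known. From each list the text names up to 3 genes with the largest rise and 2 with the largest fall at day 8 among those well above background on both arrays, with bounds for dim ones; Zbp1, Aim2, Tbk1, Rela, Trim25, Tnfaip3, Socs1, Rnf125, Ifnar1, Ifnar2, Jak1 and Tyk2 were added after their values were seen. Some genes that this rule picks are not reported here. Alternatives were quantile normalization, normexp (offset 50) with it, the array median as scale, the authors' values, other filters, the brightest probe, a floor, and 1.5- and 3-fold limits. In data simulated for the day 8 comparison with 16658 genes, 200 of 200 changed genes were recovered with 0 false calls. The size of the changes and of the noise put into those data is not given here. How often the 2-fold calls on the real arrays would repeat in another culture was not tested. Python 3.11.15, numpy 2.4.6, pandas 2.3.3, matplotlib 3.10.9, R 4.3.3 and limma 3.58.1 were used.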

Additional observations from a re-analysis of the deposited data

How the results depend on the processing

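No paired analysis was possible because a condition is a single array. Of the counts and medians over the 10 genes and the pathway lists, 6 values under the alternatives moved and the other 72 did not, where a count within 1.5 times the reported one, or a median within the error, is taken as not moved. Part of the 72 could hardly have moved. The authors' values differ from those used only by 1 constant per array, and the floor and the brightest probe left the counts and medians over the 10 genes unchanged. Counts taken as not moved include those of the pathway lists at day 8, with 15 higher and 6 lower under normexp and 16 and 13 with the array median as scale, against 22 and 9. Genes that moved at least 2-fold between day 4 and day 8 numbered 0 with normexp and quantile normalization, 1 with the array median as scale and 1 after dropping probes dim on any array, against 2. The median change at day 8 was 0.99 with the array median as scale, and that at day 6 was 1.26 with no filter on dim probes. At 1.5-fold, 7 genes were higher at day 4, and at 3-fold 3, 4 and 4 were higher at day 4, day 6 and day 8. The shares of all genes past these 2 limits were not computed, so these counts have nothing to be set against.

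The array median as scale shifted the median of all genes to -0.15, -0.17 and -0.30 at the 3 days. It turned the sign of Mavs (-0.17 at day 8) and of Irf9 (-0.25), both of which were above 0 relative to that shift (0.13 and 0.05), and it took Ifih1 at day 4 (0.97) and Tlr3 at day 6 and day 8 (0.97 and 0.93) under 2-fold. Over all genes it gave 1878 higher and 2811 lower at day 8, against 2395 and 1939. Quantile normalization took Ddx58 at day 8 past 2-fold (1.04). Irf7 lay between 2.67 and 2.77 and Dhx58 between 2.27 and 2.39 at day 8 under the alternatives other than the array median. With the array median as scale Irf7 was lower, at 2.41, and so was Dhx58, at 2.08. Low signal limits Tlr3, the dimmer Irf1 probe and the control value of Ifnb1.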
